A study of Homo sapiens with 2 samples.

Results

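The genes described here are the annotated microRNA (miRNA) genes of the count table that belong to none of the large families and clusters with many counts in these libraries. They were chosen by their summed counts, as rows of the miRNA biotype with at least 100 counts summed over both libraries, leaving out the let-7, miR-30, miR-148/152, miR-15/16 and miR-10/196 genes and the miR-17-92, miR-106b-25 and miR-183/96/182 clusters. This gave 75 of the 1877 miRNA genes in a table of 61554 rows. Of all miRNA genes, 476 had a count and 97 reached the minimum, so 22 were left out by name. The minimum acts on the summed count of the same 2 libraries that are compared below, so the size of that sum is a description and not a result.

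The libraries are ribosome profiling libraries of HEK293T cells, a transformed line from human embryonic kidney, with 1 library per group. The cells of the first, titled RiboW, received the plasmid for the chimeric pyrrolysyl-tRNA synthetase that the labels call TetRS, with U6-driven tRNA cassettes (CM15CGA), and in addition the reporter plasmid pEGFP-mCherry-T2A-EGFP-151TCG. Those of the second, titled RiboWo, received the TetRS plasmid without the reporter. Both had the compound TetBu, a genotype given as WT, 30 h of expression and 1 min in cycloheximide at 0.1 mg/mL, an inhibitor that holds ribosomes on their messages. The libraries held 2519301 counts in RiboW and 3151403 in RiboWo.

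MicroRNAs are short RNAs cut from hairpin precursors by the nucleases DROSHA and DICER1 and loaded into Argonaute proteins. Their seed, the bases near the 5′ end that pair with target messages, sets which messages they repress. They are not translated. In a footprint library they are short RNAs of a length close to that of the fragments ribosomes protect, and their counts do not measure ribosomes. In these bulk libraries, fewer cells of a type, fewer miRNA molecules per cell and less recovery of short RNA cannot be told apart. Coordinates are those of the files and match GRCh38.

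The RefSeq set used here (GRCh38.p14) held a mature sequence for 68 of the 75 genes, of 19 to 25 bases. It held 2 mature RNAs for 43 genes and 1 for 25, and an arm may be missing from it. The seed, bases 2 to 8, is in capitals. The first 6 sequences are shown because 3 pairs of genes shared a seed among these sequences while their ratios differed, as described below.
hsa-miR-200b-3p: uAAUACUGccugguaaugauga
hsa-miR-200c-3p: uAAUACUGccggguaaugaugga
hsa-miR-99a-5p: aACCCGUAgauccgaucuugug
hsa-miR-100-5p: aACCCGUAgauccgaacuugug
hsa-miR-221-3p: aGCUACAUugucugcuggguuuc
hsa-miR-222-3p: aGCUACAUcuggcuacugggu

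The mature RNAs of MIR629, the most counted gene, follow, with those of the 4 miR-548 genes and of MIR340, MIR26B, MIR618 and MIR126, which had low ratios. Both arms are given for miR-629 and miR-340 and 1 for each other gene, and counts made per hairpin do not tell the arms apart.
hsa-miR-629-5p: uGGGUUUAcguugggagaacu
hsa-miR-629-3p: gUUCUCCCaacguaagcccagc
hsa-miR-548u: cAAAGACUgcaauuacuuuugcg
hsa-miR-548am-3p: cAAAAACUgcaguuacuuuugu
hsa-miR-548e-5p: cAAAAGCAaucgcgguuuuugc
hsa-miR-548f-3p: aAAAACUGuaauuacuuuu
hsa-miR-340-5p: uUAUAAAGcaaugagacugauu
hsa-miR-340-3p: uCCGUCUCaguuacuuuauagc
hsa-miR-26b-5p: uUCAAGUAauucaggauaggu
hsa-miR-618: aAACUCUAcuuguccuucugagu
hsa-miR-126-3p: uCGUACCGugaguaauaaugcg

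The 75 genes together held 59427 counts in RiboW and 103814 in RiboWo. That was 2.36% of the library with the reporter (exact 95% Clopper-Pearson interval 2.34 to 2.38%) and 3.29% without it (3.27 to 3.31%). Of all miRNA counts they made 18.9% with the reporter and 10.8% without it. MIR148A, left out here by name, is in that denominator and made a larger part of it in RiboWo than in RiboW. With it removed the shares were 27.2% in RiboW and 30.2% in RiboWo. Every one of the 75 genes had counts in both libraries, from 14 to 9778 in RiboW and from 42 to 23803 in RiboWo. The median was 159 in RiboW and 293 in RiboWo. Intervals cover counting error only, since reads copied by PCR are not independent molecules and each group had 1 library.

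Most of these genes were lower with the reporter. After scaling by the TMM method of edgeR over all rows, the median log2 ratio, RiboW over RiboWo, was -0.90, where the 1060 protein-coding genes with 100 or more counts had a median of 0.11. By this scaling 34 of the 75 genes (45.3%) were at least 2-fold lower with an interval that excluded 0, and none was at least 2-fold higher. The background for the same rule was 0.566% of coding genes lower and 2.83% higher, and 1.01% lower and 3.17% higher of all rows other than miRNA genes. Among the 22 miRNA genes left out by name, 45.5% were lower and none higher, with a median of -0.92, close to the values of the 75 genes. With 1 library per group there is no test across replicates, and each value below is a difference between these 2 libraries.

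**Figure D1:**
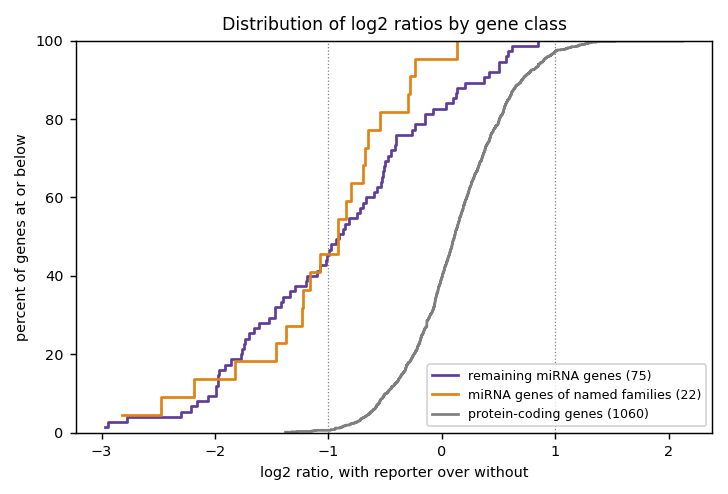
Cumulative percent of genes (vertical axis) against the log2 ratio of scaled counts, RiboW over RiboWo (horizontal axis), for the 75 remaining miRNA genes, the 22 miRNA genes of the named families and 1060 protein-coding genes. Both miRNA curves lie left of the coding curve, with medians of -0.90, -0.92 and 0.11; dotted lines mark 2-fold.

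The zero point of these ratios depends on the scaling, while the distance to the coding genes does not. The median of the 75 genes lay 1.02 below that of the coding genes (a difference of -1.02). A scaling moves all log2 ratios together, so the same distance in each of the 6 scalings was fixed in advance. The DESeq2 and deposited RPKM scalings were nearly the same, with shifts of 0.0756 and 0.0757. Scaling by total counts raised all log2 ratios by 0.46 and left 24 genes at least 2-fold lower and 4 higher (MIR200C, MIR320A, MIR760 and MIR187). Scaling by the miRNA counts other than MIR148A raised them by 0.79, with 14 genes lower and 8 higher, the 4 above and MIR100, MIR210, MIR365A and MIR449C. Under every scaling 41 genes stayed below 0 and 12 above it, and the sign of the other 22 depended on the scaling. The 14 genes that were at least 2-fold lower under every scaling were MIR26B, MIR340, MIR126, MIR374A, MIR204, MIR132, MIR582, MIR128-1, MIR548AM, MIR548E, MIR548U, MIR4664, MIR618 and MIR581.

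The genes also differed from one another by far more than counting error. Their log2 ratios had an SD of 0.90, where counting error alone would give 0.18. Among the 23 genes with 1000 counts or more the SD was 0.81 against 0.058 from counting, and among the 50 coding genes of that depth it was 0.42 against 0.068. An interval below 0 was found for 59 genes and one above 0 for 5, while 11 intervals included 0.

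**Figure D2:**
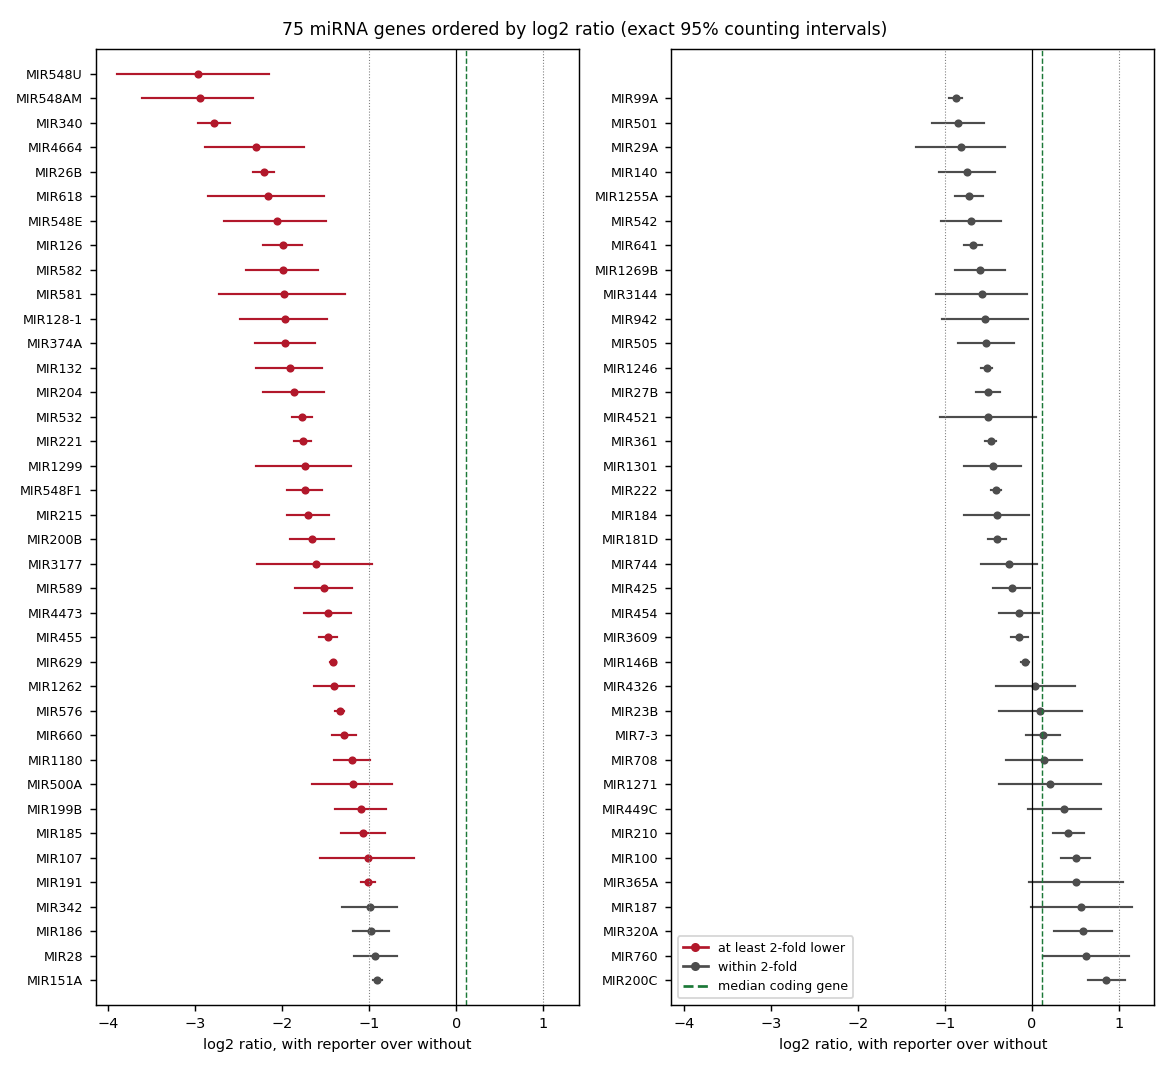
Log2 ratio of scaled counts, RiboW over RiboWo (horizontal axis), for each of the 75 genes, ordered from MIR548U at -2.97 to MIR200C at 0.85. Points are the ratios, bars their exact 95% counting intervals, red marks the 34 genes at least 2-fold lower, dotted lines mark 2-fold and the dashed line the median coding gene at 0.11.

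The 10 most counted genes held 70.0% of the counts of the 75 genes with the reporter and 69.2% without it, and they did not move together. MIR629 (chromosome 15, 70079372 to 70079468, within TLE3 on its strand) had 9778 counts in RiboW and 23803 in RiboWo, or 3315 in RiboW and 8844 in RiboWo as CPM after TMM scaling (scaled CPM). Its log2 ratio was -1.42 (-1.45 to -1.38), and without it the other 74 genes had a median of -0.89. MIR576 (chromosome 4, 109488698 to 109488795, within SEC24B) had 3825 counts in RiboW and 8834 in RiboWo, at -1.34. MIR146B (chromosome 10, 102436512 to 102436584), which is induced by NF-kB and represses adaptors of Toll-like receptor signalling, was nearly level in scaled counts. It had 6401 counts in RiboW and 6178 in RiboWo, or 2170 in RiboW and 2295 in RiboWo as scaled CPM, and a log2 ratio of -0.08 (-0.13 to -0.03). Under total counts MIR146B lay above 0, at 0.37.

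MIR151A, whose hairpin derives from a LINE2 element, had 4304 counts in RiboW and 7351 in RiboWo and was the median gene, at -0.90 (-0.96 to -0.85). MIR361, within CHM, had 3465 counts in RiboW and 4396 in RiboWo (-0.48), and its sign turned under the miRNA scaling. MIR1246 had 3277 counts in RiboW and 4286 in RiboWo (-0.52). Its sequence matches part of U2 snRNA, so its reads need not come from a miRNA hairpin, and its sign turned under the same scaling. Per length, in the RPKM values deposited by the authors, MIR629 led the 75 genes at 35081 in RiboW and 88815 in RiboWo, and MIR146B followed with the reporter at 30515, against 30630 without it.

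**Figure D3:**
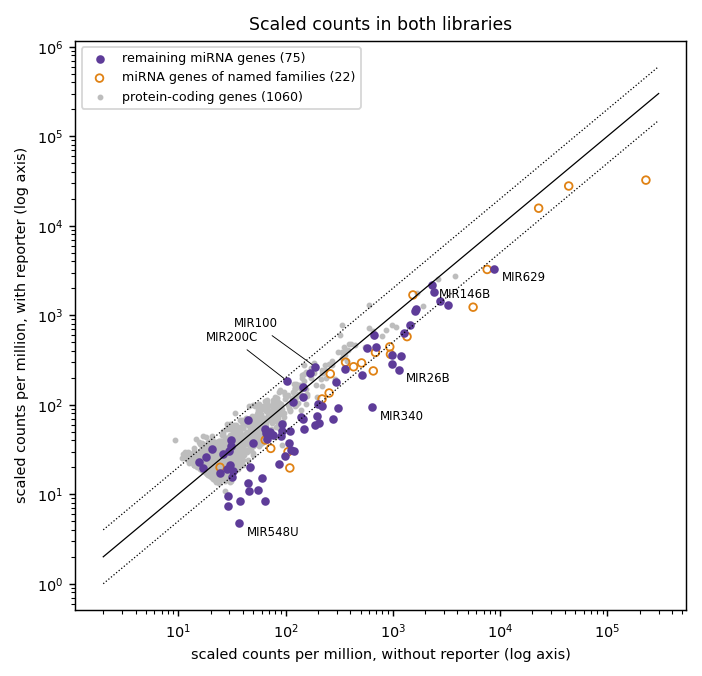
Scaled CPM with the reporter (vertical log axis) against those without it (horizontal log axis) for 75 remaining miRNA genes, 22 miRNA genes of named families and 1060 coding genes. The solid line marks equal levels and dotted lines 2-fold; MIR340 (93.6 in RiboW, 643 in RiboWo) and MIR548U (4.75 in RiboW, 37.2 in RiboWo) lie far below, and MIR200C (186 in RiboW, 103 in RiboWo) lies above.

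Genes that share a seed can act on overlapping sets of messages, and the 3 pairs found among the mature sequences used here split. Arms missing from those sequences were not searched, so other pairs of the 75 genes may share a seed. MIR200B (chromosome 1, 1167104 to 1167198) and MIR200C (chromosome 12, 6963699 to 6963766) encode epithelial miRNAs that repress ZEB1 and ZEB2. MIR200B had 177 counts in RiboW and 510 in RiboWo, at -1.66 (-1.91 to -1.41). MIR200C had 548 counts in RiboW and 277 in RiboWo, at 0.85 (0.64 to 1.07), the highest ratio of the 75. The mature RNAs printed above are identical over their first 10 bases. The difference between their log2 ratios, which no scaling can alter, was -2.51 (-2.84 to -2.18), or 5.69-fold. MIR200A, MIR141 and MIR429 of the same family had 44, 4 and 4 counts in RiboW and 34, 1 and 6 in RiboWo.

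MIR100 (chromosome 11, 122152229 to 122152308, within MIR100HG) and MIR99A (chromosome 21, 16539089 to 16539169, within MIR99AHG) belong to an old family whose targets include MTOR. Their 5p RNAs differ at 1 of 22 positions. MIR100 had 786 counts in RiboW and 507 in RiboWo, at 0.50 (0.34 to 0.66), and MIR99A had 2311 counts in RiboW and 3865 in RiboWo, at -0.87 (-0.95 to -0.80). MIR100 thus lay 1.37 (1.19 to 1.55) above MIR99A on the log2 scale, or 2.59-fold.

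MIR221 (chromosome X, 45746157 to 45746266) and MIR222 (45747015 to 45747124) lie 749 bases apart within MIR222HG, share a seed and are made from 1 primary transcript. Both repress the cell cycle inhibitor CDKN1B. MIR221 had 1044 counts in RiboW and 3239 in RiboWo, at -1.77 (-1.87 to -1.66). MIR222 had 5336 counts in RiboW and 6485 in RiboWo, at -0.41 (-0.47 to -0.36), and lay above 0 under total counts (0.04). The difference of -1.35 (-1.47 to -1.24), or 2.55-fold, is one between hairpins of the same transcript.

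Neighbouring genes differed in the other clusters too. Clusters were formed by joining each gene to the one before it on its strand when the gap was at most 10 kb. This gave 4 clusters with 10 genes. In DALRD3 on chromosome 3 (49020148 to 49020709), MIR425 had 362 counts in RiboW and 388 in RiboWo (-0.23), and MIR191 had 1851 in RiboW and 3405 in RiboWo (-1.01). The gap was 0.78 (0.55 to 1.01). In AOPEP on chromosome 9 (95085208 to 95085541), MIR23B had 82 counts in RiboW and 70 in RiboWo (0.10), and MIR27B had 736 in RiboW and 955 in RiboWo (-0.51), with a gap of 0.60 (0.10 to 1.11). The related genes MIR23A, MIR27A, MIR24-1 and MIR24-2 had 0 counts in both libraries.

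In CLCN5 on chromosome X (50003148 to 50013337), 4 genes lay below 0 under every scaling. MIR532 had 839 counts in RiboW and 2619 in RiboWo (-1.77), MIR660 had 628 in RiboW and 1402 in RiboWo (-1.29), MIR500A had 60 in RiboW and 125 in RiboWo (-1.19) and MIR501 had 152 in RiboW and 250 in RiboWo (-0.85). MIR532 lay below MIR501 by a difference of -0.92 (-1.24 to -0.60). MIR500A and MIR501 could not be told apart at this depth (-0.34, -0.90 to 0.21), nor could MIR500A and MIR660. Of the 12 comparisons made, for a shared seed or cluster, 10 had an interval of the difference that excluded 0. The same share was not worked out for other pairs of the 75 genes. Since all 75 had an SD of 0.90 against 0.18 from counting, the count cannot be called particular to a shared seed or cluster. MIR221 and MIR222 count in both kinds, and genes of 1 cluster share a transcript or host.

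The lower part of the range held the 4 miR-548 genes, a primate family of hairpins derived from Made1 transposable elements. MIR548U had 14 counts in RiboW and 100 in RiboWo, at -2.97 (-3.89 to -2.16). MIR548AM had 25 counts in RiboW and 175 in RiboWo, at -2.94 (-3.61 to -2.33), MIR548E had 32 in RiboW and 122 in RiboWo, at -2.06, and MIR548F1 had 272 in RiboW and 829 in RiboWo, at -1.74. All 4 were at least 2-fold lower. RefSeq lists the miR-548f-3p sequence also at MIR548F2, MIR548F3, MIR548F4 and MIR548F5, which had 6 counts in RiboW and 6 in RiboWo. The 68 other miR-548 genes, each under the minimum, had 52 counts in RiboW and 268 in RiboWo, a pooled log2 ratio of -2.50 (-2.96 to -2.06).

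MIR340 (chromosome 5, 180015303 to 180015397, within RNF130) had 276 counts in RiboW and 1730 in RiboWo, or 93.6 in RiboW and 643 in RiboWo as scaled CPM. Its log2 ratio of -2.78 (-2.97 to -2.60) was the lowest of the 23 genes with 1000 counts or more. MIR26B (chromosome 2, 218402646 to 218402722), which lies in CTDSP1, had 724 counts in RiboW and 3059 in RiboWo, at -2.21 (-2.33 to -2.09). Its relatives MIR26A1 and MIR26A2 had 10 and 9 counts in RiboW and 4 and 5 in RiboWo. MIR4664, MIR618, MIR582, MIR581 and MIR374A, the last within the lncRNA FTX, were at -2.30, -2.16, -1.99, -1.98 and -1.96.

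Of the 75 genes, 7 were on marker lists of other cell types, from MIR126 at -1.99 to MIR200C at 0.85. Of these, 6 were at least 2-fold lower, where 34 of all 75 were. These 7 are only the list genes that reached the minimum, and the genes below it went both ways. MIR200B and MIR200C are given above. MIR126 (chromosome 9, 136670602 to 136670686), the endothelial miRNA in EGFL7, had 207 counts in RiboW and 752 in RiboWo, at -1.99 (-2.22 to -1.77). MIR204, in TRPM3 and abundant in kidney and eye, had 91 counts in RiboW and 302 in RiboWo (-1.86), and MIR215, a relative of miR-192, had 186 in RiboW and 551 in RiboWo (-1.70). MIR128-1, a neuronal miRNA in R3HDM1, had 45 counts in RiboW and 161 in RiboWo (-1.97), and its copy MIR128-2 had 4 in RiboW and 31 in RiboWo. MIR132, a target of the transcription factor CREB, had 78 counts in RiboW and 268 in RiboWo (-1.91). MIR199B, which marks mesenchymal cells, had 150 in RiboW and 293 in RiboWo (-1.10), while MIR145 of the same marker list had 42 counts in RiboW and 10 in RiboWo.

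These values were set beside marker lists for other cell types. Kidney tubule genes had 282 counts in RiboW and 856 in RiboWo, nearly all from MIR204 and MIR215. The neuronal list had 61 counts in RiboW and 205 in RiboWo, the mesenchymal list 192 in RiboW and 303 in RiboWo, and the epithelial list 809 in RiboW and 836 in RiboWo. In scaled counts, 4 epithelial genes were higher with the reporter and 2 lower. MIR205 of that list had 32 counts in RiboW and 8 in RiboWo. The mesenchymal list had 1 gene higher and 1 lower, the kidney tubule list 1 and 2, and the neuronal list 0 and 4. These tallies used no minimum count and no interval. The neuronal 4 include MIR9-1, with 12 counts in each library, and MIR124-3, with 0 in RiboW and 1 in RiboWo. The kidney tubule gene that was higher was MIR194-1, with 5 counts in RiboW and 3 in RiboWo. The muscle list held 34 in RiboW and 55 in RiboWo and the leukocyte list 13 in RiboW and 5 in RiboWo, the last all from MIR150. MIR122 of liver, the erythroid genes (MIR451A, MIR144 and both MIR486 copies) and the pluripotent genes (the miR-302 and miR-371 to miR-373 genes) had 0 counts in both libraries. A count of 0 allows up to 3 counts, or 1.02 scaled CPM with the reporter and 1.11 without it. That bound covers counting error only. Reads with several matches may have been left uncounted, which would affect genes with copies. Both libraries are of HEK293T cells, and a part of other cell types in the low ratios was not tested.

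The remaining genes that were at least 2-fold lower spanned many loci. MIR455, in the collagen gene COL27A1, had 1053 counts in RiboW and 2658 in RiboWo (-1.47). MIR1180, MIR1262, MIR185, MIR4473, MIR589, MIR1299, MIR3177 and MIR107 were between -1.74 (MIR1299) and -1.02 (MIR107). MIR107 lies in PANK1, a gene of coenzyme A synthesis, and had 46 counts in RiboW and 85 in RiboWo. The interval of MIR107, -1.57 to -0.48, did not exclude a ratio within 2-fold. The same held for MIR191, MIR185, MIR199B, MIR1180, MIR500A and MIR3177, which were also called at least 2-fold lower.

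Genes between 0 and 2-fold lower numbered 28. Besides those given above they were MIR342, MIR186, MIR28, MIR29A, MIR140, MIR1255A, MIR542, MIR641, MIR1269B, MIR3144, MIR942, MIR505, MIR4521, MIR1301, MIR184, MIR181D, MIR744, MIR454 and MIR3609. MIR342 in EVL was the lowest of them, just short of 2-fold, with 133 counts in RiboW and 242 in RiboWo. MIR140, in WWP2 and known from cartilage, had 134 counts in RiboW and 205 in RiboWo (-0.75). MIR29A, which represses collagen messages, had 54 in RiboW and 87 in RiboWo (-0.82). MIR181D had 1276 counts in RiboW and 1539 in RiboWo (-0.40), and MIR454, of the miR-130 seed family, had 316 in RiboW and 319 in RiboWo (-0.15). MIR140, MIR181D and MIR454 lay above 0 under the miRNA scaling, and MIR181D (0.05) and MIR454 (0.31) also under total counts.

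Above 0 were 13 genes, 5 of them with an interval above 0. MIR200C and MIR100 were described above. MIR210 (chromosome 11, 568089 to 568198), the miRNA induced by hypoxia through HIF1A, had 661 counts in RiboW and 452 in RiboWo, at 0.42 (0.24 to 0.59). MIR320A, whose precursor is known to bypass DROSHA, had 199 counts in RiboW and 121 in RiboWo, at 0.59 (0.25 to 0.92). MIR760 had 94 counts in RiboW and 56 in RiboWo, at 0.62 (0.12 to 1.12). The intervals of MIR187, MIR365A, MIR449C, MIR1271, MIR708, MIR7-3, MIR23B and MIR4326 included 0, between 0.56 (MIR187) and 0.04 (MIR4326). Scaled by coding counts, MIR4326 lay at -4.17e-06, which is level.

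Some mature RNAs are encoded at more than 1 locus. The deposited count table does not say how reads with several matches were counted. RefSeq lists a mature sequence of MIR548F1, MIR7-3, MIR199B, MIR128-1 and MIR365A at another gene as well. MIR7-3 had 471 counts in RiboW and 393 in RiboWo (0.13), while MIR7-1, with the same miR-7-5p, had 0 in both. MIR365A had 76 counts in RiboW and 49 in RiboWo (0.50), and MIR365B had 19 in RiboW and 17 in RiboWo. MIR199A1 and MIR199A2, with the miR-199b-3p sequence, had 0 counts. All miRNA genes with a mature sequence in the RefSeq set used here were then compared. Any count was found for 16.7% of the 258 that share one with another gene, and for 27.8% of the other 1423. MIR1246, MIR3609 and MIR4521 were on a list of names that other RNAs are known to share, and were at -0.52, -0.14 and -0.50.

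Host genes are given beside the miRNA genes, but their counts measure something else, since the messages of a host are translated while its miRNA is not. Of the 75 genes, 50 lay within a coding gene on its strand, in 45 hosts. The hosts were thinly counted, with a median of 25 summed counts and 3 at 100 or more. Pooled, the hosts had 794 counts in RiboW and 785 in RiboWo, a log2 ratio of -0.12 (-0.26 to 0.03). The miRNA genes inside them had 36861 in RiboW and 75011 in RiboWo, at -1.16 (-1.18 to -1.14). MIR629 alone held 9778 of those counts in RiboW and 23803 in RiboWo. ZRANB2, the host of MIR186, had 88 counts in RiboW and 61 in RiboWo (0.40), and MIR186 was at -0.98 (-1.18 to -0.77). TRRAP, the host of MIR3609, was at -0.20, and TLE3, the host of MIR629, had 53 counts in RiboW and 64 in RiboWo (-0.40).

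By locus, the 50 genes with a coding host had a median of -1.04, with 27 at least 2-fold lower. The 10 within a lncRNA on its strand had a median of -0.14, with 2 at least 2-fold lower, MIR221 and MIR374A. Of the others, 9 overlapped no other row, with a median of -0.57, and 6 overlapped a gene of the opposite strand only, with a median of -0.56. The ranges of the first 2 classes overlapped widely, from -2.97 to 0.37 in coding hosts and from -1.96 to 0.85 in lncRNAs. The classes were compared after the ratios had been seen.

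Base composition is given as a description. The G+C content, averaged over the mature RNAs held for a gene, ranged from 21.5% (MIR548F1) to 70.0% (MIR760) over 68 genes. For 25 of them it rests on 1 mature RNA, which need not be the arm that was counted. The 16 genes under 40% had a median log2 ratio of -1.72, with 11 at least 2-fold lower and only MIR7-3 above 0. The 23 genes from 40% to under 50% had a median of -1.02, and the 29 genes at 50% or more had -0.70, with 10 at least 2-fold lower. Spearman's correlation across the 68 genes was 0.38 and Pearson's 0.41. Across 20 of the miRNA genes left out by name Spearman's correlation was 0.03, and across 84 miRNA genes with 20 to 99 counts it was 0.10. All of these genes share the same 2 libraries, and genes of 1 family or cluster are not independent. The comparison with base composition was chosen after the ratios had been seen.

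Several members stood alone in their families by their counts. MIR320A was the only one of 8 miR-320 genes with a count and MIR29A the only one of 4 miR-29 genes. Reads with several matches may have been left uncounted, which would affect the genes with copies in both families. A missing count for a gene of these families therefore does not show that it was not expressed. MIR542 was the only one of 6 genes of its X-linked cluster at the minimum.

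At the edge of the rule, the members with the fewest counts were MIR581, MIR1271 and MIR3177, with 101, 104 and 106 summed counts and log2 ratios of -1.98, 0.20 and -1.61. Just outside it were MIR1266, MIR98 and MIR503, with 99, 98 and 96 counts and ratios of -0.88, -1.68 and 0.60. Genes at this depth have wide intervals, for MIR581 from -2.73 to -1.28.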

How the data were processed

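Whole-number counts per gene were used as deposited by the authors. TopHat2 2.0.12 and HTSeq 0.9.1, and the builds GRCh37 and hg19, appear per the submitters' processing notes, which give neither a role nor an order. All 58 members with a hairpin in the RefSeq set used had the coordinates of GRCh38.p14, so those of the files are printed as GRCh38. The RPKM values deposited by the authors equalled count over listed gene length and 1 implied size for each library. That size was 1.14 times the summed counts in RiboW and 0.877 times in RiboWo. For adapters, strand and multiple matches, the handling was not given in the sources used here.

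Counts were scaled with edgeR 4.0.16 (TMM) in R 4.3.3. Ratios have exact Clopper-Pearson 95% intervals, and differences between genes exact conditional odds-ratio intervals (scipy 1.17.1). Each group had 1 library, so there was no replicate test. Alternatives were DESeq2 1.42.0 size factors, total, coding and miRNA counts, RPKM plus 0.1, other minimums and a 1.5-fold threshold. The ratio step was tested on simulated counts. Named genes were the 10 most counted, 10 lowest and 10 highest by interval bound, and groups sharing a seed, cluster, host or list. Members and lists were chosen with earlier results of these data known.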

Additional observations from a re-analysis of the deposited data

How the results depend on the processing

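The median log2 ratio of the 75 genes, -0.90 by TMM, was -0.83 with DESeq2 size factors, -0.83 with the deposited RPKM values plus 0.1, -0.45 with total counts and -0.12 with miRNA counts other than MIR148A, and it was -0.94 with coding counts. All ratios move together under a scaling, so this is a shift of the zero point. The count of lower genes, 34 by TMM, was 14 with miRNA counts and between 24 and 36 with the other scalings, and the count of higher genes, 0 by TMM, was 4 with total counts and 8 with miRNA counts. At a minimum of 1000 counts 23 genes remained, with 10 lower, and a 1.5-fold threshold gave 46 lower and 3 higher. Without a minimum, over 287 miRNA genes with a count in each library, the median was -0.55. Leaving out the 5 genes whose mature RNA is listed at another gene gave 31 lower, and leaving out the 3 whose names other RNAs share gave 34; both were added after the data were seen. No paired analysis was possible because each group had 1 library, and no library could be left out. Depth limits the genes near 100 counts, whose intervals span more than 1 log2 unit.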

Other observations

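All of the listed imprinted miRNA genes of 14q32 were under the minimum of 100. Of 34 genes 15 had no count, and in scaled counts 14 were higher with the reporter and 5 lower. Pooled, they had 194 counts in RiboW and 89 in RiboWo, a log2 ratio of 0.99 (0.62 to 1.37). MIR381 made the largest part, with 65 counts in RiboW and 12 in RiboWo, followed by MIR379 with 23 in RiboW and 19 in RiboWo and MIR493 with 25 in RiboW and 10 in RiboWo. MIR370 had 8 in RiboW and 13 in RiboWo. Without MIR381 the other genes had 129 counts in RiboW and 77 in RiboWo. Most of these genes had few counts, the list was not tested, and the other scalings were not run for it.

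Other lists without a member held few counts. The genes MIR130A, MIR130B, MIR301A and MIR301B held 47 in RiboW and 65 in RiboWo. The miR-101 genes held 19 in RiboW and 27 in RiboWo, the miR-9 genes 12 in each, and the mirtrons, made by splicing, 27 in RiboW and 29 in RiboWo. The placental C19MC cluster held 3 in RiboW and 11 in RiboWo. MIR106A, MIR18B, MIR20B and MIR19B2 had 0 in both. MIR449C, of the miR-34 seed family and known from multiciliated cells, made 119 of the 127 counts of its list in RiboW and 84 of the 91 in RiboWo.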
